A study of Mus musculus with 12 samples.

Results

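The comparison described here is RNA recovered by immunoprecipitation (IP) of MIWI from Miwi ADH/- cells, set against the input RNA of the same genotype. Its members are the 12246 genes, of 20345 in the deposited table, that reached at least 1 RPKM (a gene's reads divided by its length in kilobases and scaled to 1000000 reads of the library) in at least 2 of the 6 columns of the table. For each of them the value compared was log2(RPKM + 1) in the IP minus log2(RPKM + 1) in the input. The series holds mouse late spermatocytes, meiotic male germ cells late in prophase, sequenced after removal of ribosomal RNA, with 12 samples in the labels, 2 for each combination of IP or input with 3 genotypes. Those genotypes are Miwi ADH/-, Miwi +/- and Miwi -/-, so every group carries at least 1 null Miwi allele, and in Miwi ADH/- the only MIWI that can be made is the mutant. The labels name testes and sorted cells as sources of RNA without assigning samples to either, and strain and age are not given in the sources used.

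MIWI is a PIWI protein, a germline relative of the Argonautes, which binds pachytene piRNAs and can cut RNAs that pair with them. The cut needs a catalytic triad in the PIWI domain, and the ADH allele is known as the form in which the leading residue of that triad is exchanged, so that the protein can still load piRNAs but not cut. MIWI is also known to be found with messenger RNAs in germ cell ribonucleoprotein. The comparison therefore addresses which RNAs are recovered with a MIWI that cannot cut, and the Miwi -/- IP shows what the same procedure recovers without MIWI.

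The table has 1 column per group, so no difference below has a replicate check or a p-value. Genes were counted by size, at 2-fold or more. Each ratio of reads carries an exact 95% interval (Clopper-Pearson) that reflects the counting of reads alone, because PCR copies of a molecule are counted as well. The Miwi ADH/- IP was the deepest column, at 10581229 reads, and its input held 5488630; the other columns ranged from 4172540 (Miwi -/- IP) to 7491509 (Miwi +/- input). Listed genes took 35.0% of the reads of the Miwi ADH/- IP and 47.9% of those of its input. The genes are given by Ensembl ID because the table does not pair IDs with names and the reference tables used here matched 0 of them. For that reason at most 2 IDs are printed in each direction, the level of the targeted gene and of cell type markers is not reported, the pathway lists gave no values, and no sequence is shown. In bulk RNA such as this, fewer cells of a type and less RNA per cell cannot be told apart.

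Most RNAs were less represented among IP reads than among input reads. The median difference over the 12246 genes was -0.41 on the log2 scale, with the lower quartile at -1.0 and the upper at 0.17, and 31.6% of genes lay above 0. In all, 591 genes (4.83%) were at least 2-fold higher in the IP and 3057 (25.0%) at least 2-fold lower. Larger differences were also mostly on the lower side: 619 genes (5.05%) were at least 4-fold lower against 53 (0.433%) at least 4-fold higher, and 97 (0.792%) were at least 8-fold lower against 6 (0.0490%) higher. This balance depends on the scale, since a smaller part of the IP reads fell in listed genes. Relative to the median difference, 1472 genes (12.0%) were higher and 1640 (13.4%) lower. Scaling by median of ratios, which moved the median by 0.34, gave 1201 and 1728, and equal reads in listed genes, which moved it by 0.35, gave 1262 and 1751.

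Counting error bears on single genes. As a description of genes already picked for their difference, the interval excluded equal RPKM for 557 of the 591 higher genes and 2968 of the 3057 lower ones, and lay wholly beyond 2-fold for 273 and 2148. For the 2624 genes with at least 200 reads in both columns, the log2 differences had a standard deviation of 0.81 over genes, against a median counting error of 0.09. Of these well-read genes 96 (3.66%) were higher and 715 (27.2%) lower, against 4.83% and 25.0% of all members.

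**Figure D1:**
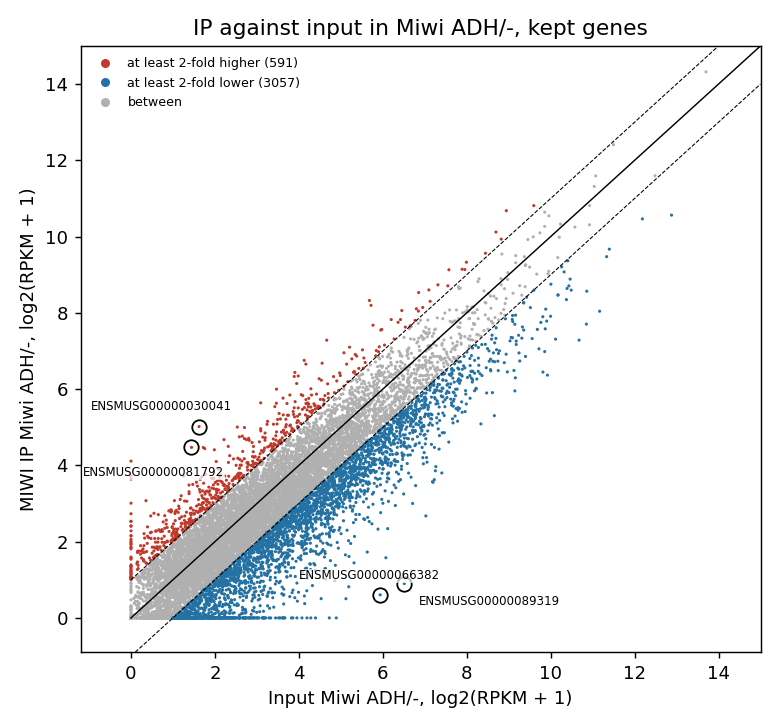
Each point is 1 of the 12246 genes, by its level in the Miwi ADH/- input (horizontal) and in the Miwi ADH/- IP (vertical), both as log2(RPKM + 1). The solid line marks equality and the dashed lines 2-fold; 591 genes lie above the upper dashed line, 3057 below the lower one, and the 4 named genes are circled.

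Genes were named only among the 7406 members with at least 5 RPKM in a Miwi ADH/- column and at least 20 reads over both. The 2 highest of these were both low in the input. ENSMUSG00000030041 stood at 31.4 RPKM in the Miwi ADH/- IP and 2.08 in its input, at 13.7 and 4.80 in Miwi +/-, and at 3.15 and 3.33 in Miwi -/-. It was thus high in the Miwi ADH/- IP, intermediate in the Miwi +/- IP and level with its input where MIWI is absent. The ratio of IP to input was 15.1 in Miwi ADH/- (95% interval 8.74 to 28.7, from 379 and 13 reads), 2.86 in Miwi +/- (1.96 to 4.23) and 0.946 in Miwi -/- (0.468 to 1.84). The gene was chosen for its Miwi ADH/- value, and the difference between the genotypes was not tested.

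ENSMUSG00000081792 stood at 21.2 RPKM in the Miwi ADH/- IP and 1.72 in its input, a 12.3-fold difference (6.60 to 26.1, from 238 and 10 reads). In Miwi +/- it had 3.84 and 1.89 RPKM, a ratio of 2.04 (1.03 to 4.17). Unlike ENSMUSG00000030041 it was as high in the control, at 31.8 RPKM in the Miwi -/- IP against 1.72 in the input, a ratio of 18.5 (10.5 to 35.5). Its high level in the IP was thus seen without MIWI as well.

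The 2 lowest were ENSMUSG00000089319, whose recovered length is 109 bases, and ENSMUSG00000066382, of 544 bases. ENSMUSG00000089319 had 0.867 RPKM in the Miwi ADH/- IP and 90.3 in the input, from 1 and 54 reads, which is 104-fold lower with an interval from 17.9 to 4187. It was as scarce in the other IPs, at 1.56 RPKM in Miwi +/- (1 read) and at 0 in Miwi -/-, while their inputs held 110 and 103 RPKM. ENSMUSG00000066382 had 0.521 RPKM in the Miwi ADH/- IP and 60.3 in the input, from 3 and 180 reads, which is 116-fold lower (39.0 to 566). In Miwi +/- it was 8.02-fold lower (4.19 to 17.2), at 3.12 against 25.0 RPKM, and in Miwi -/- it had 0.441 and 1.81 RPKM, from 1 and 7 reads. Its input level differed between the genotypes, and the Miwi -/- interval for the ratio of IP to input, 0.00540 to 1.89, includes equality.

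**Figure D2:**
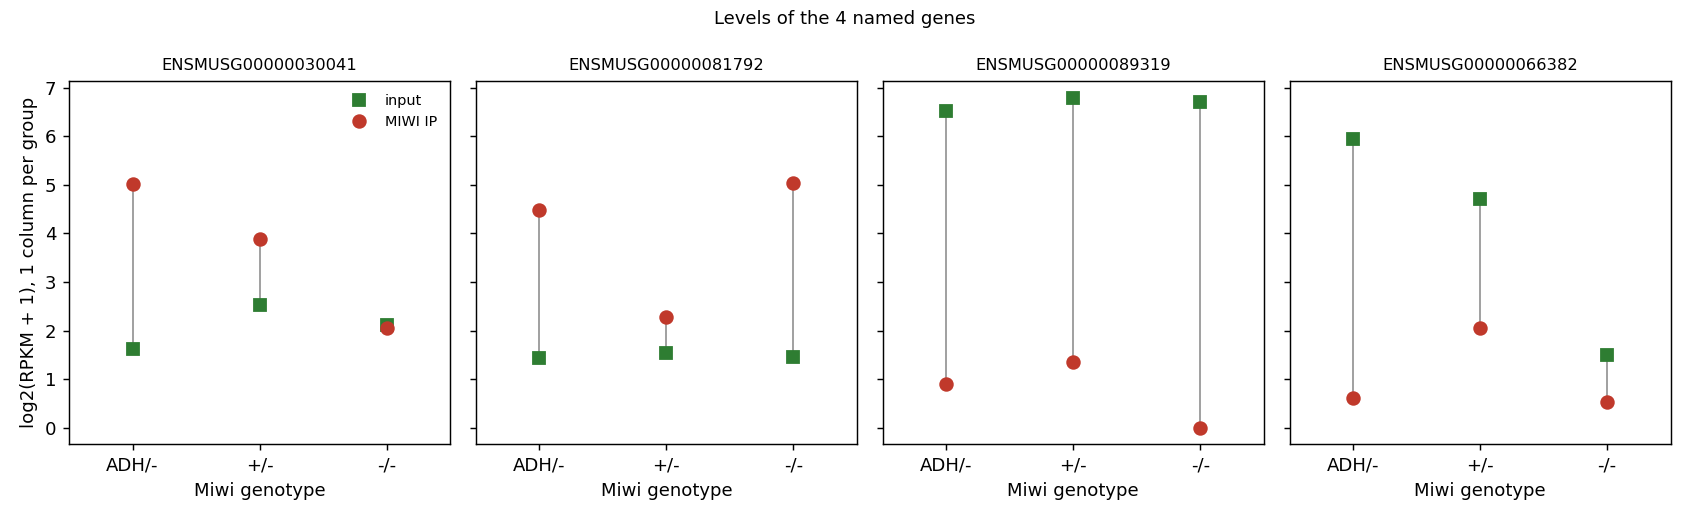
Levels of the 4 named genes as log2(RPKM + 1) in the input (squares) and the MIWI IP (circles) of each genotype, 1 column per group and no error bars. ENSMUSG00000030041 lies above its input in Miwi ADH/- and Miwi +/- only, ENSMUSG00000081792 is highest in the Miwi -/- IP, and both other genes lie below their input in every genotype.

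Among the same 7406 genes, the 15 highest ran from 2.44 to 3.40 in log2 difference. Their levels in the Miwi ADH/- IP ran from 7.43 to 320 RPKM with a median of 63.0, against 0.281 to 51.7 and a median of 10.1 in the input. Of these 15 genes, 12 were also at least 2-fold higher in the Miwi +/- IP, against 4.24% of all members. In Miwi -/- 8 of the 15 were at least 2-fold higher and 3 at least 2-fold lower, against 3.67% and 60.9% of all members. In 7 of the 15 the RPKM of the Miwi -/- IP was above that of the Miwi ADH/- IP. The 8 highest genes with a negative Miwi -/- difference had 7.43 to 320 RPKM in the Miwi ADH/- IP (median 47.2), 0 to 199 in the Miwi +/- IP (median 18.4) and 0 to 14.7 in the Miwi -/- IP (median 2.95). Of these 8, 7 were at least 2-fold higher in Miwi +/- as well, again against 4.24%, and their median length was 2184 bases. The 15 lowest genes were short by contrast, 14 of them under 1000 bases, with a median of 581. Their median was 0.867 RPKM in the IP, against 38.8 in the input, and 14 of the 15 were at least 2-fold lower in Miwi +/-, against 40.6% of all members. In Miwi -/- 8 of the 15 were, which is no larger a share than the 60.9% of all members. These shares are of all members, whereas each 15 came from the 7406 better-read genes. Of the 7596 genes with at least 5 RPKM in a Miwi ADH/- column, 3526 were at least 2-fold lower in Miwi +/- and 5198 in Miwi -/-. In the same 7596, 249 and 205 were at least 2-fold higher.

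The 591 higher genes had a median of 4.52 RPKM in the Miwi +/- input, against 7.37 for all members. That column took no part in the choice of these genes beyond the filter on low values. In the columns that chose them, their median level was 10.1 RPKM in the IP, against 3.10 in the input, and the highest reached 1796.5 RPKM in the IP. By the same columns they took 12.1% of the IP reads of the members and 3.14% of their input reads. Their median length of 1512 bases was near the 1617 of all members. In Miwi +/-, whose columns are separate from those of Miwi ADH/-, 160 of the 591 (27.1%) were also at least 2-fold higher in the IP, against 4.24% of all members, and 61 (10.3%) were at least 2-fold lower, against 40.6%. In the Miwi -/- control 131 (22.2%) were at least 2-fold higher, against 3.67% of all members, and 158 (26.7%) at least 2-fold lower, against 60.9%. On the deposited scale their median difference was 0.42 in Miwi +/- and 0.00 in Miwi -/-, where fewer were higher than lower. Set against all members, larger shares were higher and smaller shares lower in both other genotypes, the one without MIWI included. With a pseudocount of 1, no gene below 1 RPKM in an input can be counted as lower in that genotype. The smaller shares lower may be partly set by this rule, as the 591 had lower inputs. In the Miwi -/- input their median was 4.02 RPKM, against 6.58 for all members.

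Split by both other genotypes, 73 of the 591 were higher in all 3 IPs, 87 in Miwi ADH/- and Miwi +/- but not in Miwi -/-, 58 in Miwi ADH/- and Miwi -/- but not in Miwi +/-, and 373 (63.1%) in Miwi ADH/- alone at this threshold. Of all members, 519 (4.24%) were higher in the Miwi +/- IP, 449 (3.67%) in the Miwi -/- IP and 113 in both. Most members were thus higher in neither other IP, a larger share than the 63.1% of the 591. The 73 had medians of 38.8 RPKM in the Miwi ADH/- IP, 39.7 in the Miwi +/- IP and 48.9 in the Miwi -/- IP, against 10.03 in the Miwi ADH/- input. The 87 had medians of 12.0, 12.1 and 2.76 RPKM in the IPs, in the same order, and 3.99 in the Miwi ADH/- input. The 373 had 8.10, 3.81 and 1.34 RPKM, with median differences of 1.20 in Miwi ADH/-, 0.00 in Miwi +/- and -0.45 in Miwi -/-. A gene that passes 2-fold in 1 genotype and misses it in another is not shown to differ between them, and that difference was not tested. The control is shallow: with at least 20 reads over both Miwi -/- columns, 409 of the 591 genes remained, of which 114 (27.9%) were higher there and 97 (23.7%) lower, against 3.65% and 67.3% of all members with that many reads.

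The 3057 lower genes were shorter than the members as a whole, with a median of 1144 bases against 1617. They were also more abundant in the Miwi +/- input, with a median of 13.3 RPKM against 7.37. That contrast is partly set by the rule, since with a pseudocount of 1 no gene below 1 RPKM in the Miwi ADH/- input can be among these 3057. In the columns that chose them, their median was 15.3 RPKM in the input and 4.16 in the IP, and they held 38.5% of the members' input reads and 16.4% of their IP reads. Of them, 2191 (71.7%) were at least 2-fold lower in Miwi +/- as well, against 40.6% of all members, and 2317 (75.8%) in Miwi -/-, against 60.9%. In all 3 genotypes 1765 (57.7%) were lower, which is also the number among all 12246 members, since any gene lower in all 3 belongs to this set. In the other direction, 49 (1.60%) were at least 2-fold higher in the Miwi +/- IP, against 4.24% of all members. In the Miwi -/- IP 52 (1.70%) were, against 3.67%.

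**Figure D3:**
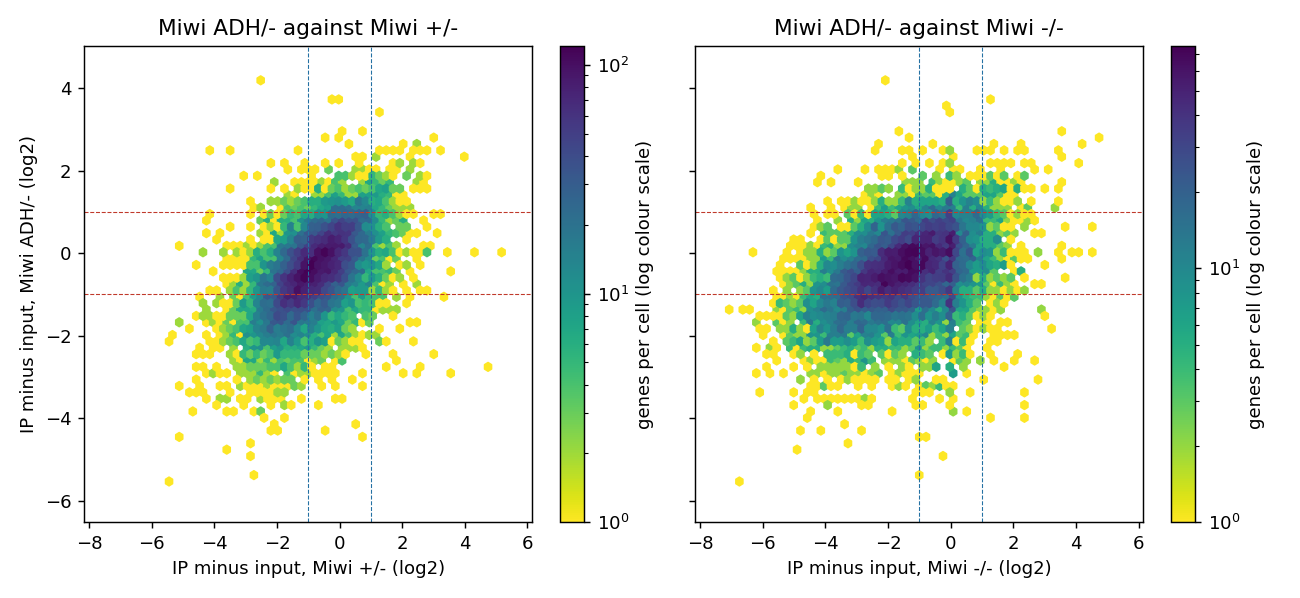
Log2 difference of IP and input in Miwi ADH/- (vertical) against that in Miwi +/- (left, horizontal) and in Miwi -/- (right, horizontal), for 12246 genes; colour gives the number of genes per cell on a log scale and dashed lines mark 2-fold. The points rise from lower left to upper right in both panels, with correlations of 0.53 (left) and 0.40 (right).

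Over all members the Miwi ADH/- differences had a Pearson correlation of 0.53 with those of Miwi +/- and 0.40 with those of Miwi -/-. For the 4602 genes with at least 20 reads in each of the 6 columns these were 0.79 and 0.67. The correlations run across genes, which are not independent replicates and which keep their length and base composition in every library. The medians of the differences were -0.41 in Miwi ADH/-, -0.77 in Miwi +/- and -1.37 in Miwi -/-.

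The difference of IP and input varied with both the length and the abundance of the RNA. Genes of 4000 bases and more had a median difference of -0.12 and genes of 300 to under 1000 bases one of -0.77, a gap of 0.65, and 6.61% and 41.9% of them were at least 2-fold lower in the IP. The share of genes at least 2-fold higher was less spread, from 3.46% of the longest to 10.2% of the 342 under 300 bases. To keep abundance apart from the difference itself, genes were also grouped by their level in the Miwi +/- input, a column the difference does not use. The median fell with that level, from -0.14 under 2 RPKM (2486 genes) to -0.32 at 2 to under 10, -0.52 at 10 to under 50 and -0.84 at 50 RPKM and more (1519 genes). The share of lower genes went from 14.6% to 42.5% between the ends of that range, and that of higher genes from 7.52% to 2.83%. With a pseudocount of 1, a gene below 1 RPKM in the Miwi ADH/- input cannot be counted as 2-fold lower. The share of lower genes at low levels is therefore held down by the rule. The median number of input reads went from 12 to 639 over the same range, so the precision of single genes is not equal between these groups. The pseudocount of 1 also shrinks the differences of low genes, so part of the fall of the median follows from it. How large that part is was not tested, as the level groups were not redone with another pseudocount.

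Within each level the medians rose or stayed level with length from 300 bases upwards, with ties at -0.13 under 2 RPKM and at -0.63 at 50 RPKM and more. Within each of those length classes they fell with the level, to which the same limit of the pseudocount applies. At 2 to under 10 RPKM the median was -0.71 in the class of 300 to under 1000 bases and -0.08 in the longest class. At 10 to under 50 RPKM these were -0.88 and -0.32, and at 50 RPKM and more -1.06 and -0.63, the last from 36 genes. Of the 557 abundant genes of 300 to under 1000 bases, 53.0% were at least 2-fold lower, against 2.02% of the 247 longest genes under 2 RPKM. Here too, no gene below 1 RPKM in the Miwi ADH/- input could be counted as lower, so this contrast is partly set by the rule. The shortest genes, under 300 bases, did not extend the trend at every level: they lay at -0.71 at 50 RPKM and more, above the -1.06 of the next class, and rest on 55 genes there. The same order from 300 bases upwards was seen in the other genotypes relative to their own medians, where the longest genes lay at 0.35 in Miwi +/- and 0.38 in Miwi -/-, against 0.29 in Miwi ADH/-.

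**Figure D4:**
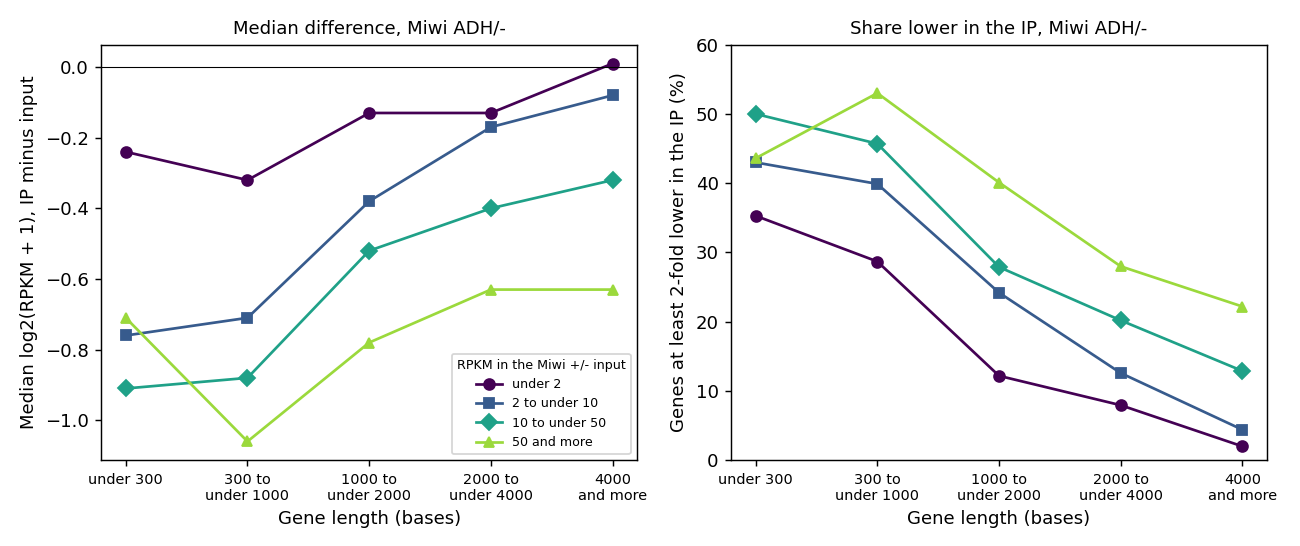
Median log2 difference of IP and input in Miwi ADH/- (left) and percentage of genes at least 2-fold lower in the IP (right) by gene length in bases; each line is a range of RPKM in the Miwi +/- input, and there are no error bars. From 300 bases upwards the lines rise or stay level on the left and fall on the right, from 53.0% to 22.2% for the most abundant genes.

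The most-read RNAs of the IP overlapped in part with those of the input. The 100 most-read genes took 19.9% of the listed IP reads and, for the input's own 100, 18.9% of the listed input reads; 46 genes were in both lists. The RNA with the highest level in the IP, of 151 bases, had 20452.3 RPKM there and 13325.6 in the input, a ratio of 1.53 (1.50 to 1.57). In the IPs of Miwi +/- and Miwi -/- it had 13327.4 and 12260.9 RPKM, so it was abundant without MIWI too. The next, of 389 bases, had 5438.4 RPKM in the Miwi ADH/- IP and 2888.4 in the input, a ratio of 1.88 (1.83 to 1.94). Here the control was lower, with 882.9 RPKM in the Miwi -/- IP against 3672.9 in its input, while Miwi +/- had 3042.3 and 3290.4. The RNA ranked after these, of 583 bases, was lower in the IP, with 3094.9 RPKM against 5736.2. Among the 100 genes of highest RPKM in the IP, 18 were at least 2-fold higher than in the input and 22 lower, with a median difference of -0.09, against 4.83% and 25.0% of all members. These genes were chosen by the IP level, which enters the difference and favours higher values.

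Genes can also be chosen in the other genotypes and then looked up in Miwi ADH/-, whose columns took no part in the choice beyond the filter on low values. Among 519 genes with at least 2-fold more RPKM in the IP of Miwi +/- than in its input (4.24% of members), 160 (30.8%) were higher and 49 (9.44%) lower in Miwi ADH/-, against 4.83% and 25.0% of all members, with a median of 0.52. Of the 449 genes so chosen in the Miwi -/- control, 131 (29.2%) were higher and 52 (11.6%) lower, with a median of 0.34. The sets overlap in 113 genes, chosen in both, which had 73 (64.6%) higher in Miwi ADH/-, at a median of 1.41. The 290 genes chosen in the Miwi +/- IP with a negative Miwi -/- difference had 53 (18.3%) higher and 32 (11.0%) lower, at a median of 0.24. The reverse choice, 190 genes chosen in the Miwi -/- IP with a negative Miwi +/- difference, had 25 (13.2%) higher and 39 (20.5%) lower, at a median of -0.21. The sign of the last median turned with the scaling. With the median of all members taken as 0, these sets lay at 0.65 and 0.20, and median-of-ratios scaling put the last one at 0.07.

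RNAs that were scarce in the input of Miwi -/- were more often lower in the Miwi ADH/- IP than members at large, and most often at the stricter limit. The Miwi -/- input was at least 2-fold below that of Miwi +/- for 1295 genes (10.6%), of which 518 (40.0%) were lower and 65 (5.02%) higher in Miwi ADH/-, with a median of -0.73. Among them are 175 genes (1.43% of members) whose Miwi -/- input fell at least 8-fold short of that of Miwi +/-, with medians of 21.2 RPKM in the Miwi +/- input and 0.479 in the Miwi -/- input. In Miwi ADH/- the 175 had medians of 29.6 RPKM in the input and 9.12 in the IP. Of these, 133 (76.0%) were at least 2-fold lower in the Miwi ADH/- IP, against 25.0% of all members, and 1 (0.571%) was higher, with a median difference of -1.72. Relative to the median of all genes 107 (61.1%) were still at least 2-fold lower, against 13.4% of members. Their median difference in Miwi +/- was -1.67, where the input had been used to choose them. They were also short, at a median of 764 bases, and of all members of 300 to under 1000 bases at 10 to under 50 RPKM in the Miwi +/- input 45.7% were lower; the part that length and abundance have in the 76.0% was not tested further. The 547 genes (4.47%) with a Miwi -/- input at least 2-fold above that of Miwi +/- lay near the median of all members, at -0.39, with 43 (7.86%) higher and 150 (27.4%) lower.

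**Figure D5:**
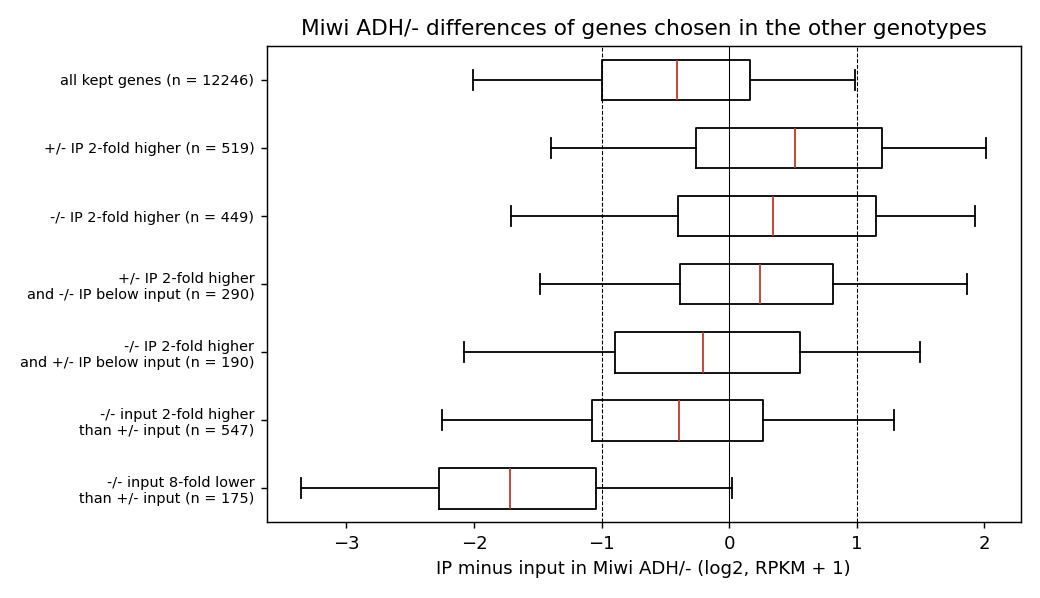
Log2 difference of IP and input in Miwi ADH/- for all members and for 6 sets of genes chosen from Miwi +/- and Miwi -/- columns; boxes span the 25th to 75th percentiles, red lines are medians and whiskers reach the 5th and 95th percentiles over genes. The 175 genes scarce in the Miwi -/- input lie lowest, at a median of -1.72, and the 519 and 449 genes higher in the Miwi +/- and Miwi -/- IPs lie above 0 in the median.

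Detection set the remaining limits. Of the members, 141 had 0 reads in the Miwi ADH/- input and 629 had 0 in the IP, 75 of them in both. At 0 input reads 13 genes had 20 or more IP reads and at most 44; at 0 IP reads 37 genes had 20 or more input reads and at most 63. That last gene, of 792 bases, had 14.5 RPKM in the input. With 3 reads taken as the most that a count of 0 in the IP allows, it is at least 40.5-fold lower there. This value leaves out the counting error of the input reads. In a gene of 1000 bases those 3 reads are worth 0.284 RPKM in the Miwi ADH/- IP and 0.547 in its input. In the IP, 10214 members reached 1 RPKM, of which 446 were below 1 RPKM in the input and 1210 below 1 RPKM in both other IPs, which were sequenced less deeply. At the edge of the filter, the 278 genes whose second-highest column was 1 to under 1.1 RPKM had a median difference of -0.22, with 17 higher and 36 lower, and the 274 genes at 0.9 to under 1 RPKM, left out, had -0.18, with 9 and 14.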

How the data were processed

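Per the submitters' processing notes, TopHat, Bowtie and the mouse build mm9 were used, with no version or role given; the counting tool, the annotation and whether the samples of a group were pooled are not given in the sources used. The authors deposited RPKM per Ensembl gene in 6 columns, all used; per the file headers the unit is named for Miwi +/- only. Values of each gene step in whole reads (within 0.002 reads plus 1e-07 of the read number), which gave reads and relative depths. All 6 read totals came out within 0.001 of a whole number, as RPKM would; they are known up to a whole factor, set from gene lengths (45.7% of 7075 within 0.05 of a whole number, 10% by chance). Of the genes, 2893 had a value in 1 column only, taken as 1 read. Lengths depend on that factor; differences and intervals do not.

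Differences used a pseudocount of 1, which understates changes of low genes. The planned lists needed gene names and gave no values. Named IDs were the 2 highest and 2 lowest among genes with 5 RPKM in a Miwi ADH/- column and 20 reads. The members, rules and lists were chosen with earlier results of these data known, and the sets chosen in other genotypes, the level ranges, the minimum of 200 reads and the read minimums in other genotypes after seeing the values. Python 3.11.15, pandas 2.3.3 and scipy 1.17.1 were used; scripts were tested on simulated tables.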

Additional observations from a re-analysis of the deposited data

Results flagged for a closer look

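ENSMUSG00000030041, the highest of the genes eligible for naming in the Miwi ADH/- IP, had log2 differences of IP and input of opposite sign in Miwi ADH/- and Miwi -/-, at 3.40 and -0.06. The control value is near 0, rests on 15 IP and 27 input reads and has an interval that includes equality, so it shows no movement in the other direction. The difference between the genotypes was not tested, since each has 1 column.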

How the results depend on the processing

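No paired analysis was possible because the columns carry no replicate number and each group has 1 column. The number of genes higher in the IP was 991 with a pseudocount of 0.1, 184 with one of 5, 1472 relative to the median difference, 1201 with median-of-ratios scaling and 1262 with equal reads in listed genes. The number of lower genes was 4061 with a pseudocount of 0.1, 1529 with one of 5, and 1640, 1728 and 1751 under the same 3 scalings. The median difference was -0.52 and -0.21 with pseudocounts of 0.1 and 5, -0.19 with no filter, -0.54 with at least 5 RPKM in a Miwi ADH/- column, -0.07 and -0.06 with median-of-ratios scaling and equal reads, and -0.38 with at least 20 reads. The gap between the longest genes and those of 300 to under 1000 bases narrowed from 0.65 to 0.38 with a pseudocount of 5 and to 0.31 with no filter. The median of genes under 300 bases, -0.67 in the main setting, was 0.00 with no filter, above the -0.37 of the next class. With at least 5 RPKM in a Miwi ADH/- column it was -1.54, below the -0.91 of the next class. Medians of genes of 2000 to under 4000 bases and of 4000 and more turned positive relative to the median (0.15 and 0.29), with median of ratios (0.07 and 0.16) and with equal reads (0.07 and 0.17), because these settings move all genes by a constant factor. No value of a named gene changed direction. More higher and more lower genes with a small pseudocount follow from its construction, since low values then differ more. The sets chosen in other genotypes were followed under the same settings, a choice made after seeing the data. Among the 175 genes, the number lower ran from 104 to 137. It was 104 (59.4%) with median-of-ratios scaling, against 14.1% of all members, and 137 (78.3%) with a pseudocount of 0.1, against 33.2%. A pseudocount of 5 gave 108 (61.7%), against 12.5%. Only 172 of the 175 remained with at least 5 RPKM in a Miwi ADH/- column, and 166 with at least 20 reads. Columns without replicates leave the spread between samples unknown, and the depth of the Miwi -/- IP limits the control.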
